A study of Rattus norvegicus with 10 samples.

Results

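Cilia genes were examined in the hippocampus of young rats that ate diets of different hardness. The genes were chosen by name: dynein arm genes of the axoneme (Dnah, Dnai and Dnal), cilia and flagella associated proteins (Cfap), radial spoke heads (Rsph), tektins (Tekt), sperm associated antigens (Spag), intraflagellar transport (Ift) and Bardet-Biedl syndrome (Bbs) genes whose name goes on with a digit, and Foxj1. Every probe set annotated with exactly 1 such symbol was a member, which gave 88 probe sets for 68 genes of 31042 probe sets and 14217 singly named genes. Of the member genes, 53 were measured by a single probe set.

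The 10 rats were male Wistar rats, 4 weeks old by the labels. The C-group (n = 5) ate solid chow and the P-group (n = 5) ate powdered chow for 8 days, and the comparison addressed how the mastication that a solid diet demands bears on gene expression in the hippocampus. Both groups had first been acclimatised on the powdered diet, and all rats lived in cages built to leave little to chew. Each array held RNA of a hippocampus dissected by hand, and nothing states that the adjoining choroid plexus or the ependymal wall of the ventricle was removed or kept.

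On these arrays 2 rats stood apart. C1 was the highest rat in 53.5% of all variable probe sets. P2 had a mean of 8.47 over the variable pineal and photoreceptor markers, against 6.27 to 6.38 in the other rats. The variable hippocampal neuron markers averaged between 8.86 and 9.27 in the C-group and between 8.91 and 9.21 in the P-group. Calls between the diets are given without C1 too, and without P2 where that changed a call or a direction.

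A motile cilium beats because dynein arms slide the doublet microtubules of its axoneme against each other, and radial spokes and a central pair of microtubules regulate that sliding. Tektins and many Cfap proteins lie on or in the doublets, and Foxj1 is the transcription factor that switches on the motile cilia program together with factors of the RFX family. A primary cilium lacks most of this machinery and senses signals such as hedgehog. Ift proteins carry cargo along either kind of cilium, and the BBSome of Bbs proteins moves membrane receptors in and out of it. In the brain, multiciliated ependymal cells line the ventricles, the choroid plexus epithelium also bears tufts of cilia, and most neurons and astrocytes carry a single primary cilium.

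The values were deposited as log2 signals from qFARMS, a factor model that flattens a probe set to nearly 1 level where its probes do not vary together. A probe set with an SD above 0.01 over the 10 rats was therefore called variable, since a constant one carries almost no information on differences between rats. Of the 88 member probe sets, 7 were variable (7.95%), against 9.36% of all probe sets. They measured 6 genes, namely Cfap300, Cfap144 at 2 probe sets, Cfap100, Cfap69, Dnal1 and Spag9, and the other 62 member genes had no variable probe set. The difference between these shares of probe sets was not tested. When a member did vary, its median SD was 0.308, against 0.219 for all variable probe sets. The threshold separated the members clearly, because the least variable member above it was Cfap69 with an SD of 0.145, and the next one below it was Cfap20dc with 0.00778.

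**Figure D1:**
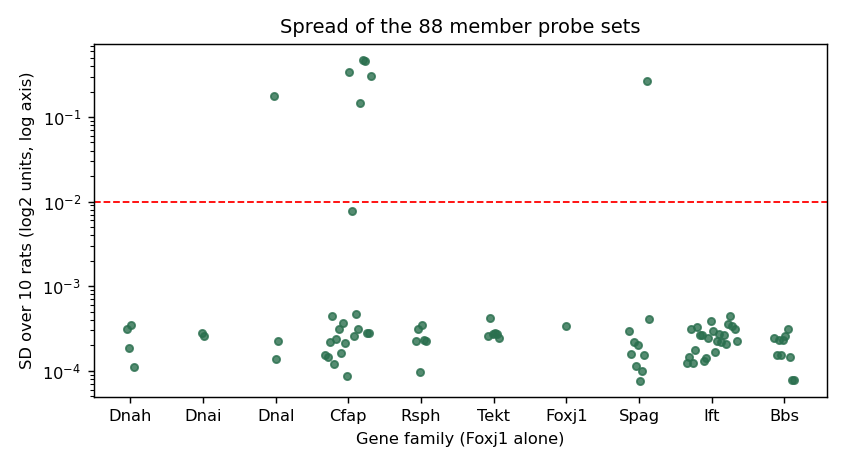
Standard deviation of each of the 88 member probe sets over the 10 rats, in log2 units on a log axis, by gene family. The dashed line marks an SD of 0.01, and only 5 Cfap probe sets, 1 Dnal1 and 1 Spag9 probe set lie above it.

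The 81 constant member probe sets gave a level but no usable difference. Their signals are listed by family as the lowest and the highest, and a level of 1 probe set cannot be ranked against that of another because probes differ in affinity. The heavy chains of the dynein arms, Dnah1, Dnah2, Dnah7 and Dnah17, lay between 6.02 (Dnah7) and 6.62 (Dnah1) on the log2 scale. The intermediate chain gene Dnai1 lay at 6.87 and Dnai7 at 7.33. The radial spoke genes Rsph1, Rsph3, Rsph6a, Rsph9 and Rsph10b spanned 6.11 (Rsph3) to 7.70 (Rsph10b), and the tektin genes Tekt1 to Tekt5 and Tekt5l1 spanned 5.93 (Tekt5l1) to 7.10 (Tekt1). None of these axonemal families had a variable probe set.

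Among the Cfap genes, 15 of 19 were constant, from Cfap107 at 6.03 to Cfap20dc at 10.26. They were Cfap20, Cfap20dc, Cfap36, Cfap45, Cfap77, Cfap90, Cfap97, Cfap107, Cfap126, Cfap161, Cfap276, Cfap298, Cfap299, Cfap410 and Cfap418. Foxj1, on chr10:102065163-102069945 of GRCr8, was constant at 7.13 with an SD of 0.00034.

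The transport genes were all constant. The 17 Ift genes (Ift20, Ift22, Ift25, Ift27, Ift43, Ift46, Ift52, Ift57, Ift70a1, Ift70b, Ift74, Ift80, Ift81, Ift88, Ift122, Ift140 and Ift172) had 24 probe sets between 5.41 (Ift25) and 8.91 (Ift20). Ift70a1 and Ift70b are close copies of each other, so whether their probes tell them apart is uncertain. The 7 Bbs genes (Bbs1, Bbs2, Bbs4, Bbs5, Bbs7, Bbs9 and Bbs12) had 10 probe sets between 5.91 (Bbs12) and 7.93 (Bbs4). Of the 6 Spag genes, Spag16 encodes a central apparatus protein and was the lowest at 5.71, and Spag4 lay at 6.86. Spag5, Spag7 and Spag11a share the name without being parts of the axoneme. Spag9, which encodes a scaffold of JNK signaling that also binds motor proteins, had 3 constant probe sets, at 6.84, 8.69 and 10.94, and a variable one described below.

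The 5 variable Cfap probe sets were the members that moved together. Their genes are Cfap144, which encodes a protein on the inside of the doublet microtubules, Cfap300, a dynein arm assembly factor, Cfap100, a part of the complex that modifies the inner dynein arms, and Cfap69, known from sperm flagella and olfactory cilia. The 250 bases before the start were taken from RefSeq (GRCr8) for these genes, and 3 of them are printed because the genes' signals varied together over the rats. That of Cfap300, which varied with them, is left out because the start given for it lies inside the annotated gene. The windows are Cfap144 at chr10:44019282-44019531 (minus strand), Cfap100 at chr4:124495991-124496240 (minus strand) and Cfap69 at chr4:29334374-29334623 (plus strand). Capitals mark the letters GTTGCC on either strand, a core motif of the RFX factors.
Cfap144: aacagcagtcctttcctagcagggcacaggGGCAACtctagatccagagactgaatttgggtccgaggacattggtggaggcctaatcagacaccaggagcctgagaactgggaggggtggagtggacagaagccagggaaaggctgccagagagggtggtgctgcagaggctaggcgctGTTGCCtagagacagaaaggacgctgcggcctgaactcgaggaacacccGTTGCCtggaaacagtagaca
Cfap100: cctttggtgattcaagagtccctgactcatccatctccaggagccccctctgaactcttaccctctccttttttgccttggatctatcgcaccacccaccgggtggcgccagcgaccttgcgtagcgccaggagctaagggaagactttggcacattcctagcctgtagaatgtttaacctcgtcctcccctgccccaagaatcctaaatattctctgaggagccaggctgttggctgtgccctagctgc
Cfap69: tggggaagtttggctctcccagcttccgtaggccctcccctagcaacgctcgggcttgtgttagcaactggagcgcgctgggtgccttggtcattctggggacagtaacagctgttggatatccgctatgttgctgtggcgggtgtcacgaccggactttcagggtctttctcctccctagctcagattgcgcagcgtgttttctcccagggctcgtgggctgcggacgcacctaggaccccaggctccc

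Cfap144 held the letters at 3 places, which begin 220 (minus strand), 70 and 21 bases before the start. Cfap100, Cfap69 and Cfap300 held no exact match. Over windows of 300 bases that add 50 bases after the start, with 1 window a gene, GTTGCC stood on either strand in 12.2% of 27457 promoters and in 19 of the 56 member promoters (33.9%) found in the table. The forkhead letters GTAAACA, as bound by factors like Foxj1, stood in 3.77% of all promoters and in 2 of the 56 (3.57%). These counts describe letters in a window, and no binding was measured.

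Cfap300 (chr8:13465016-13483679 in GRCr8) had log2 signals of 7.67, 7.21, 6.43, 6.49 and 7.31 in C1 to C5, and of 6.35, 6.31, 7.19, 6.71 and 6.82 in P1 to P5. C1, C5, C2 and P3 were high and the other rats lower, so that the groups overlapped. The mean was 7.02 ± 0.54 (SD, n = 5) for the C-group. It was 6.67 ± 0.36 (SD, n = 5) for the P-group.

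Cfap144 (chr10:44009412-44019281) had 2 variable probe sets, called a (SD 0.456 over the 10 rats) and b (SD 0.341). Probe set a gave 8.04, 7.32, 6.62, 6.79 and 7.42 in C1 to C5, and 6.52, 6.78, 7.36, 7.002 and 7.07 in P1 to P5. Probe set b gave 7.65, 7.29, 6.65, 6.86 and 7.43 in C1 to C5, and 6.66, 6.89, 7.36, 6.98 and 7.25 in P1 to P5. Both probe sets ordered the rats almost alike (Spearman's rho = 0.98), with C1 highest in both, and in neither did the groups separate.

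Cfap100 (chr4:124471913-124495990) gave 6.63, 6.06, 6.002, 5.78 and 6.497 in C1 to C5, and 5.77, 5.94, 6.49, 6.22 and 6.32 in P1 to P5. C1, C5 and P3 were again high, while C2, which was high for Cfap300, lay in the middle. Cfap69 (chr4:29334624-29405513) gave 7.88, 7.79, 7.63, 7.70 and 7.92 in C1 to C5, and 7.49, 7.53, 7.85, 7.72 and 7.73 in P1 to P5. It had the narrowest spread of the 7, with C5 highest and P1 and P2 lowest, and its other probe set was constant at 7.04.

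Dnal1 (chr6:109478941-109515201), a light chain of the outer dynein arm, followed another order. It gave 8.50, 8.26, 8.07, 8.14 and 7.92 in C1 to C5, and 8.22, 8.14, 8.03, 7.97 and 7.93 in P1 to P5, so C1, C2 and P1 were high and C5 was lowest. Its other 2 probe sets were constant at 6.40 and 6.64. Spag9 (chr10:79440311-79574709) gave 7.81, 7.44, 7.12, 7.21 and 7.13 in C1 to C5, and 7.57, 7.26, 7.17, 6.90 and 7.06 in P1 to P5. As with Dnal1, C1, P1 and C2 were the highest rats, and the groups overlapped.

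**Figure D2:**
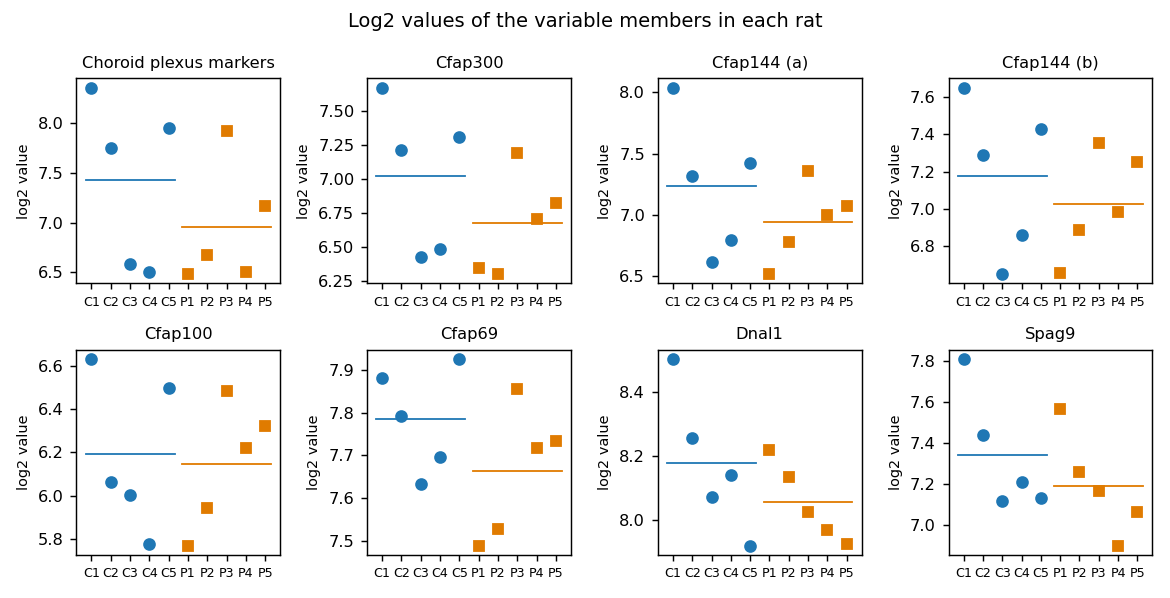
log2 signal (vertical axes) of the 7 variable member probe sets in each rat of the C-group and the P-group, with a bar at each group mean and no error bar; (a) and (b) are the Cfap144 probe sets a and b. The groups overlap in every panel, and C1 is highest in all panels but that of Cfap69.

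The 7 probe sets thus fell into 2 patterns. Among the 5 Cfap probe sets, rho between any pair over the 10 rats lay between 0.87 and 0.98. Dnal1 and Spag9 were close to each other, with a rho of 0.87 and an r of 0.93. Between these 2 and the Cfap probe sets, rho lay between -0.30 and 0.16. The same 10 arrays underlie all of these values, and they are given as a description.

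Whether the members followed Ttr, the transthyretin gene that choroid plexus epithelium transcribes in abundance, was asked next. Ttr lay at 13.59, 13.49, 10.35, 9.09 and 13.60 in C1 to C5, and at 7.40, 9.29, 13.58, 10.18 and 12.99 in P1 to P5. The rats fell into 2 clusters of 5, with a gap of 2.64 that was 42.5% of the whole range, so that no pooled correlation with Ttr is given as a result. The high cluster held C1, C2, C5, P3 and P5, and therefore rats of both groups.

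The mean of the other variable choroid plexus markers (29 probe sets of 25 genes) served as the reference in its place. It lay at 8.35, 7.75, 6.59, 6.503 and 7.95 in C1 to C5, and at 6.48, 6.68, 7.92, 6.502 and 7.17 in P1 to P5. Its largest gap was 31.3% of its range, close to the third above which it would have been treated as clusters too. The 5 highest rats were the same as for Ttr, but the gap lay between C2 and P5, so P5 fell below it. The reference averaged 7.43 ± 0.84 (SD, n = 5) among C-group rats. Among P-group rats it averaged 6.95 ± 0.61 (SD, n = 5).

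Of the 7 variable member probe sets, 1 passed a permutation test of Spearman's rho with the reference after adjustment over all 2904 variable probe sets, of which 3.24% passed with a positive rho. It was Cfap144 probe set a, with a rho of 0.89 (permutation p = 0.00108, adjusted p = 0.0424). The other 4 Cfap probe sets had a rho of 0.82 to 0.88 and missed the threshold, with adjusted permutation p-values of 0.0546 (Cfap144 probe set b), 0.0568 (Cfap69), 0.0743 (Cfap100) and 0.0974 (Cfap300). The median rho of the 7 was 0.84, against 0.12 for all variable probe sets. The threshold fell between Cfap probe sets whose rho differed by little, and the call itself depended on the rats in the test. It was lost, with 0 members called, without any 1 of C1, C2, C5, P1, P3 and P5, while 3 or 4 Cfap probe sets were called without any 1 of C3, C4, P2 and P4. The share of all variable probe sets that passed ran from 0.138% (without C1) to 2.38% (without P1) in the former runs and from 3.03% to 4.17% in the latter. With each rat left out in turn, the rho of the 5 Cfap probe sets stayed between 0.75 and 0.97.

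Pearson's r with the reference was 0.92 for Cfap144 probe set a (adjusted permutation p = 0.00149), 0.94 for probe set b (0.00182), 0.96 for Cfap300 (0.00323), 0.85 for Cfap69 (0.030) and 0.83 for Cfap100 (0.0586). C1 and C5 lay farthest from the median of the reference. Without them, r was 0.88, 0.88, 0.92, 0.76 and 0.67 in that order, with no test. No correlation is given as a result within a diet group, since each held 5 rats.

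Dnal1 and Spag9 did not follow the choroid plexus markers. Their rho was -0.02 (adjusted permutation p = 0.997) and 0.21 (adjusted permutation p = 0.972). Both had a higher rho with the mean of the astrocyte markers, 0.79 for Dnal1 and 0.92 for Spag9, whereas the Cfap probe sets had between -0.13 and 0.20 with it. With the mean of the pineal and photoreceptor markers, rho was 0.47 for Dnal1, 0.66 for Spag9 and between 0.12 and 0.39 for the Cfap probe sets. Of 10 astrocyte markers 9 were measured, 5 varied and 4 were called higher in the C-group by rank products, or 0 without C1. Over all probe sets 1.99% were called higher, or 0.203% without C1. The mean of the variable astrocyte markers lay between 9.58 and 9.98 in the C-group and between 9.37 and 9.81 in the P-group. It was highest in C1 (9.98), P1 (9.81) and C2 (9.77). The same rats were lowest in the mean of the variable oligodendrocyte markers, with 10.79 in C1, 10.74 in P1 and 10.80 in C2. The mean of the variable hippocampal neuron markers was lowest in C2 (8.86) and C1 (8.88). The order of the rats in Dnal1 and Spag9 is thus not tied to astrocyte markers alone. These rho with other lists are descriptions, computed after the members' values were seen.

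Ependymal markers outside the members were the nearest list by cell type. Of its 26 genes, 13 were measured and 6 varied. These 6 were Dynlrb2, Lrrc23, Ak7, Cdhr4, Mlf1 and Tmem212, which all stand on the list of other motile cilia genes below too. Their mean therefore sets the members beside other cilia genes, not beside a separate marker of the cell type. It lay between 6.92 and 7.74 in the C-group and between 6.86 and 7.40 in the P-group. The rho with this mean was 0.92 for Cfap100, between 0.65 and 0.73 for the other Cfap probe sets, -0.36 for Dnal1 and -0.27 for Spag9. The ependymal mean and the choroid plexus reference had a rho of 0.71 with each other, and their shares in the Cfap signals cannot be told apart in these arrays. In bulk tissue, fewer cells of a type and less RNA per cell cannot be told apart either.

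**Figure D3:**
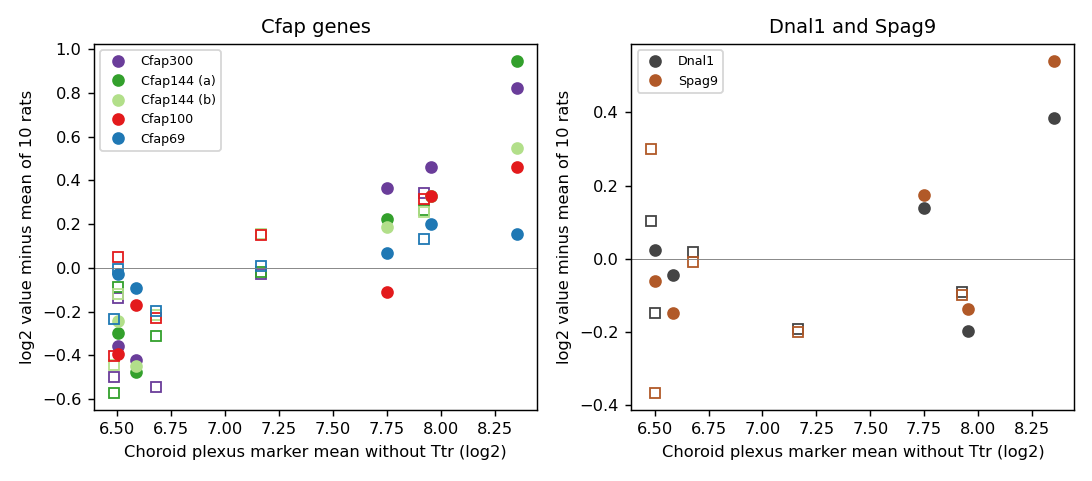
log2 signal of the variable members (vertical axes) against the mean log2 signal of the 29 choroid plexus marker probe sets without Ttr (horizontal axis), 1 point a rat, with filled circles for the C-group and open squares for the P-group. The Cfap probe sets climb with the markers (rho 0.82 to 0.89), and Dnal1 and Spag9 do not (rho -0.02 and 0.21).

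The diets were then compared. Rank products, which ranks differences between rats of the groups and does not weigh them against the spread within a group, called 2 of the 88 member probe sets higher in the C-group at a false discovery rate (FDR) under 0.05 (2.27%, against 1.99% of all probe sets) and 0 lower (against 0.383%). The 2 were Cfap300, with a C-group minus P-group difference of 0.35 ± 0.28 (limma SE, FDR 0.00968), and Cfap144 probe set a, with 0.29 ± 0.28 (limma SE, FDR 0.0222). The exact permutation test over all assignments of the rats gave two-sided p = 0.270 for Cfap300 and p = 0.357 for Cfap144 probe set a, where 0.00794 is the smallest p it can give. Both differences were therefore of the order of their errors.

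The calls depended on single rats and on the background of the ranking. Without C1, the rat with the highest choroid plexus reference, Cfap300 differed by 0.19 (FDR 0.0747) and Cfap144 probe set a by 0.09 (FDR 0.162), and neither was called. Without C2 the FDR was 0.0593 for Cfap300 and 0.0707 for Cfap144 probe set a, and the latter was not called without C5 (0.0894) or P1 (0.0654) either, where it differed by 0.24 and 0.18. Without C3 the same probe set differed by 0.45. Both calls held without P2 (differences of 0.26 and 0.25). When rank products was run on the variable probe sets alone, 0 members and 0.138% of all those probe sets were called. Without C1 and without C2 the share of all probe sets called was 0.203% and 0.341%, so these runs lost calls over the whole array.

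Choroid plexus markers, with which these Cfap signals varied, were called in the same direction. Of 36 choroid plexus markers 32 were measured, 26 varied and 23 were called higher in the C-group by rank products, or 9 without C1. Over all probe sets 1.99% were called higher, or 0.203% without C1. The mean of the variable ones, Ttr included, lay between 6.59 and 8.53 in the C-group and between 6.52 and 8.11 in the P-group. The part of this tissue in the Cfap differences was not tested.

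The other 5 variable members were not called. Their differences were 0.15 ± 0.22 for Cfap144 probe set b (limma SE, exact permutation p = 0.524), 0.12 ± 0.085 for Cfap69 (p = 0.214) and 0.05 ± 0.20 for Cfap100 (p = 0.833). Dnal1 differed by 0.12 ± 0.11 (limma SE, exact permutation p = 0.310) and Spag9 by 0.15 ± 0.17 (p = 0.413). Without C1 the differences were 0.03 for Cfap144 probe set b, -0.06 for Cfap100, 0.04 for Dnal1 and 0.03 for Spag9, while that of Cfap69 was 0.10. The difference of Cfap100 was also below 0 without P2 (-0.0060), without C5 (-0.030) and without P1 (-0.050). It was above 0 without any 1 of C2, C3, C4, P3, P4 and P5.

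With all rats included, every one of the 7 differences lay above 0, as did 68.3% of those of all variable probe sets. The median was 0.15, against 0.07. C1 was the highest rat in 6 of the 7. In limma, which weighs each difference against the spread between rats, 0 of the 88 members passed an adjusted p of 0.05 (against 0% of all probe sets), and the adjusted p of the 7 lay between 0.927 and 0.975. At an unadjusted p under 0.05 limma held 1 of the 88, against 2.95% of all probe sets. This was a constant probe set of Spag16, whose difference of 0.00019 carries no usable size.

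The limma and exact permutation p-values of the diet differences weigh them against the spread between the sampled rats. The FDR of rank products, which rests on permutations within arrays, does not.

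Other genes of motile cilia, outside the naming rule, were mostly constant too, and none was called between the diets. The variable ependymal markers named above are all among them. Of 97 listed genes, 48 were measured (58 probe sets), 11 varied, and 0 were called in either direction by rank products or limma. Over all probe sets, rank products called 1.99% higher and 0.383% lower, and limma called 0%. The median difference was 0.07 over the 13 variable probe sets. The rho of these 13 with the choroid plexus reference ran from 0.09 (Wdr54) to 0.94 (Dynlrb2), with a median of 0.73, and 1 passed the test. Dynlrb2, a dynein light chain gene, lay at 8.95, 7.91, 7.60, 7.37 and 8.33 in C1 to C5, and at 7.35, 7.72, 8.34, 7.70 and 8.20 in P1 to P5. C1, P3 and C5 were thus high, as for the Cfap genes, and it was the probe set that passed (adjusted permutation p = 0.0206). Its difference between the diets was 0.17 ± 0.32 (limma SE).

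The differences of the other named genes of this list were smaller than or close to their errors. Iqub and Lrrc23, which encode radial spoke proteins, differed by 0.14 ± 0.14 and 0.10 ± 0.14 (limma SE), and the other variable Lrrc23 probe set by 0.07 ± 0.083. Spef2, a central apparatus gene, differed by 0.10 ± 0.13. Tmem212 differed by -0.12 ± 0.16, and by -0.03 ± 0.11 at its other variable probe set. Wdr54 differed by -0.16 ± 0.16 and stood apart in C1 alone, with 8.05 there and 8.67 to 8.97 in the other 9 rats.

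Of the other genes of primary cilia, 64 of 86 were measured (90 probe sets) and 6 varied. Rank products called 3 of these genes higher in the C-group and 0 lower, and 0 passed limma. Over all probe sets, rank products called 1.99% higher and 0.383% lower. The 3 were Kif3a, a motor subunit of kinesin-2 that drives intraflagellar transport, Kifap3, the accessory subunit of the same motor, and Ahi1, a transition zone gene. Kif3a differed by 0.26 ± 0.19 (limma SE, FDR 0.0156), Kifap3 by 0.26 ± 0.24 (FDR 0.0160) and Ahi1 by 0.27 ± 0.25 (FDR 0.0211). None of the 3 was called without C1, where they differed by 0.14 (FDR 0.0862), 0.14 (FDR 0.0862) and 0.09 (FDR 0.155). In that run 0.203% of all probe sets were called higher.

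In all 3 the highest rats were C1, P1 and C2, as for Dnal1 and Spag9. Kif3a lay at 8.59, 8.27, 7.98, 7.98 and 7.66 in C1 to C5, and at 8.23, 7.91, 7.85, 7.65 and 7.53 in P1 to P5. Kifap3 lay at 9.63, 9.44, 8.88, 9.08 and 8.66 in C1 to C5, and at 9.49, 8.98, 8.82, 8.61 and 8.47 in P1 to P5. The groups overlapped, and the rho with the choroid plexus reference was 0.10 for Kif3a, 0.03 for Kifap3 and 0.26 for Ahi1. In neurons and astrocytes Kif3a and Kifap3 also serve transport outside the cilium, so they do not mark cilia alone.

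The other variable genes of this list had differences within their errors. They were Tmem67, a transition zone gene (0.09 ± 0.11, limma SE), Gpr161, a ciliary receptor that restrains hedgehog signaling, and Pkd2, a polycystin channel gene (-0.02 ± 0.078). The variable probe sets of Gpr161 went opposite ways, with -0.09 ± 0.11 and 0.05 ± 0.096. Tmem67 leaned toward the choroid plexus reference, with a rho of 0.79 that missed the threshold (adjusted permutation p = 0.125).

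**Figure D4:**
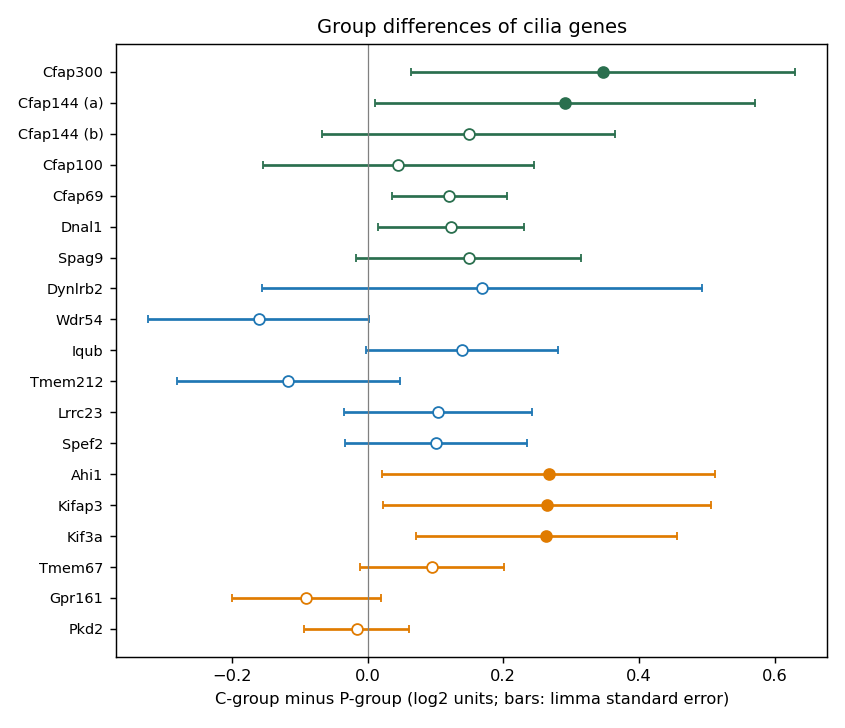
C-group minus P-group difference in log2 signal with its limma SE as the error bar, for the variable members (green), the other motile cilia genes (blue) and the other primary cilia genes (orange) that are named; filled markers were called by rank products. Cfap300, 1 Cfap144 probe set, Kif3a, Kifap3 and Ahi1 are filled, and none passed limma.

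The constant members were looked at last, by the order of the rats in what little spread the factor model had left, a choice made after values had been seen. Such a spread is a few ten-thousandths of a log2 unit, so only its order was used. The families were grouped by gene name alone, and not every Cfap gene need encode a part of the axoneme. The rho with the choroid plexus reference was above 0.8 in 5 of the 38 constant members of the axonemal families with Foxj1 (13.2%), or 4 of 37 without Foxj1, and in 1 of the 34 constant Ift and Bbs members (2.94%), against 1.11% of the 28138 constant probe sets. It was also above 0.8 in 1 of the 9 constant Spag probe sets, the brightest of Spag9 (rho = 0.81).

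The 5 were Tekt1 (rho = 0.90), Foxj1 (0.89), Cfap418 (0.89), Cfap126 (0.88) and Cfap161 (0.83), and Ift80 (0.89) was the one among the transport genes. For Foxj1 the values in thousandths of a log2 unit from its mean were 0.658, 0.0353, -0.349, -0.313 and 0.304 in C1 to C5, and -0.354, -0.248, 0.306, -0.138 and 0.0998 in P1 to P5. C1, P3, C5, P5 and C2 lay above its mean, the same 5 rats that were high for Ttr, and all 10 values lay within 0.00101. The median rho was 0.48 over these 38, 0.21 over the Ift and Bbs members and 0.07 over all constant probe sets. Without C1 the count of 5 became 4, against 0.753% of constant probe sets, and the rho of Foxj1 was 0.85. Without P2 it was 9, against 1.62%.

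**Figure D5:**
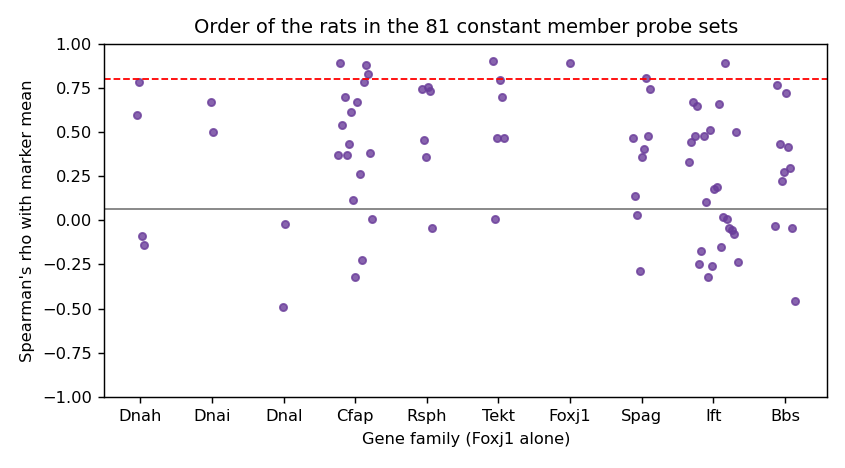
Spearman's rho of each constant member probe set with the mean of the choroid plexus markers without Ttr over the 10 rats, by gene family. The red dashed line marks a rho of 0.8 and the grey line the median of all constant probe sets (0.07); Tekt1, Foxj1 and Cfap418 are among the 7 members above the dashed line.

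The genes outside the members whose variable probe sets were most like the members were ranked by Pearson's r over the 10 rats with the mean of the standardised variable axonemal members, which were the Cfap and Dnal1 probe sets. They were Itgb6 (r = 0.989), Stra6 (0.983), Lama3 (0.978), Krt18 (0.978), Gas6 (0.975), Cab39l (0.975), Gsta4 (0.974), Msi2 (0.974), Prps2 (0.974) and Spata6 (0.970). Krt18, an epithelial keratin, and Cab39l stand on the choroid plexus marker list. This mean includes Dnal1, which did not follow the Cfap pattern. Chosen after the values were seen, the same ranking for Dnal1 alone was led by Pgm3 (0.990), Trps1 (0.985) and Jam2 (0.984). For Spag9 it was led by Eif3j (0.992), Vcan (0.989) and Pacsin1 (0.982). The astrocyte water channel gene Aqp4 came ninth (0.979) and was the only gene of the astrocyte marker list among the 10 for Spag9. The 10 for Dnal1 held no gene of that list. Values this high were picked from 2904 variable probe sets on 10 shared arrays.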

How the data were processed

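Hippocampal RNA of 5 C-group and 5 P-group rats was measured on Affymetrix Rat Genome 230 2.0 arrays from 100 ng of RNA, 1 array a rat. Quantile normalization and the probe summary were done by the authors with qFARMS (R 2.7.2), and the deposited values are log2 signals. Only these values were used, so another summary of the probes was not tried. Arrays have no read depth, and 5 rats a group limit the precision. The 57 control probe sets were left out, which left 31042. Symbols came from the platform annotation, where 20826 probe sets had 1 symbol, 436 several and 9780 none. Coordinates of all 68 member genes came from RefSeq on GRCr8.

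Groups were taken from the labels. Rank products, the test that the paper names, was written in Python 3.11.15 (numpy 2.4.6, pandas 2.3.3), with the 25 differences between rats of the groups, 100 permutations within arrays and an FDR of 0.05. limma 3.58.1 in R 4.3.3 (lmFit, eBayes, Benjamini-Hochberg adjustment) gave standard errors and adjusted p-values. Both ran on all 31042 probe sets and were tested on simulated data. Correlations used 100000 two-sided permutations, with adjustment over all 2904 variable probe sets, although adjustment over the members had been planned. Named were every variable member, Foxj1, the highest and lowest constant level of each family, called or most different genes of the other cilia lists, Ttr, and the 10 most alike genes. The members and lists were chosen with earlier results of these data known. Alternatives were other normalizations, filters, thresholds, a replicate block and leaving out each rat.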

Additional observations from a re-analysis of the deposited data

How the results depend on the processing

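Rank products called 2 members higher in the C-group (1.99% of all probe sets). It called 1 without dim probe sets (1.01% of all), 1 with the highest-mean probe set of each gene (1.62%), 0 on the variable probe sets alone (0.138%), and 0 to 4 when each rat was left out in turn (0 without C1 or C2, 1 without C5, 3 without C3, 4 without P3 and otherwise 2, with 0.203% to 2.54% of all). Median-centred arrays and quantile normalization gave 2 (1.99% and 1.81% of all). No member was called lower under these settings, and of all probe sets only 0% to 0.741% were. limma, not run with the highest-mean probe sets, called 0 under the others. Cfap300 kept its call in 8 of 10 and Cfap144 probe set a in 6 of 10 sets without a rat. Calls were gained by Cfap144 probe set b without C3 (FDR 0.0434) and without P3 (0.0484), by Cfap69 without P3 (0.0414) and by Spag9 without P1 (0.0377). Of the differences recomputed for the 7 variable members, 80 kept their side of the threshold, 5 gained it and 6 lost it. The cause of these shifts was not tested.

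Of the variable members, 1 followed the choroid plexus reference by Spearman's rho. The share of all variable probe sets was 3.24%. The count was 4 by Pearson's r (8.23% of all), 3 on median-centred arrays (3.10%), and 0 to 4 when each rat was left out in turn. With Ttr itself, a planned setting that is no result because of its 2 clusters of rats, it was 3 (1.76%). The count of 7 variable members became 8 at an SD threshold of 0.001 and stayed at 7 at 0.1. The share of all probe sets at these 2 thresholds was not computed, so the counts have no background beside them.

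Rats of the 2 groups share replicate numbers. Over all variable probe sets, the deviations of same-numbered rats correlated between -0.389 and 0.485, so the numbers were not taken as pairs. Some signals followed the number more closely. Dnal1 fell from 8.50 in C1 to 7.92 in C5 and from 8.22 in P1 to 7.93 in P5, and Kif3a and Kifap3 fell likewise. A replicate block in limma lowered the SE of Dnal1 from 0.108 to 0.047 and that of Spag9 from 0.166 to 0.060. It raised the SE of every variable Cfap probe set. What the numbers stand for is not stated. With the replicate block, rank products called 3 members higher (2.94% of all probe sets), Spag9 being added (FDR 0.0468).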
